A study of Mus musculus with 22 samples.

Results

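Genes of DNA replication and S phase were followed from embryonic day 13.5 (E13.5) to embryonic day 16.5 (E16.5) in the telencephalon, the forebrain region that forms the cerebral cortex and basal ganglia, of ICR mouse embryos. The set was a list of 48 gene symbols, all of which were found among the 55385 genes of the RNA count table. It was drawn up by gene name with no cut on a measured value, but earlier results of these data were known at that point. Both stages were sampled from unmanipulated ICR tissue, with no genotype or treatment other than age separating them, and the number of embryos and their sexes behind a library were not stated in the labels. Libraries of RNA-seq and of native ChIP-seq of 3 histone marks existed at E16.5 and E13.5, and ATAC-seq, which maps open chromatin, at E13.5, with 2 libraries per group stated to be biological replicates. The marks were acetylation (H3K9ac) and crotonylation (H3K9cr) of the same lysine of histone H3, and lactylation of another lysine (H3K18la). The series lists 22 samples in all, of which 4 are inputs, which are not analysed here.

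A cell copies its genome once per cycle. In G1 the origin recognition complex with Cdc6 and Cdt1 loads the ring-shaped MCM helicase onto DNA, geminin blocks a second loading, and at S phase Cdc45 and the GINS complex switch the helicase on so that primase, polymerases, the sliding clamp and its loader can build new strands. In the telencephalon these genes are used by dividing radial glia and intermediate progenitors, whereas neurons have left the cycle.

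RNA totals ranged from 17059544 to 18485855 counts over the 4 libraries. Markers of the labelled tissue were present at both stages: Lhx2, a transcription factor of the developing forebrain, was at 160 and 138 CPM (read counts divided by a library size scaled for composition) at E16.5 and at 314 and 271 CPM at E13.5, and Emx1, a transcription factor of the dorsal telencephalon, was at 34.4 and 29.6 CPM at E16.5 and at 96.03 and 73.8 CPM at E13.5. Levels of cell type markers differed between stages. The summed level of 10 radial glia and neural progenitor markers was 1364 and 1230 CPM at E16.5 and 2032 and 2114 CPM at E13.5. Of these markers, 8 were lower and 2 higher. The 6 intermediate progenitor markers, all lower, summed to 490 and 415 CPM at E16.5 and 929 and 832 CPM at E13.5. Of 10 markers of postmitotic neurons, 6 were higher and 2 lower, with sums of 6459 and 6653 CPM at E16.5 and 5604 and 5611 CPM at E13.5. All 8 microglial, all 7 endothelial and all 5 pericyte markers were higher. Microglial markers summed to 108 CPM in both E16.5 libraries against 49.5 and 48.7 CPM at E13.5, endothelial markers to 343 and 357 CPM at E16.5 against 103 and 114 CPM at E13.5, and pericyte markers to 213 and 232 CPM at E16.5 against 76.4 and 74.9 CPM at E13.5. No radial glia, intermediate progenitor or neuron marker was at 0 in any library. The part of these shifts in the results that follow was not tested.

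All 48 genes were lower at E16.5 than at E13.5 (edgeR quasi-likelihood test, Benjamini-Hochberg adjusted p under 0.05 over 16237 tested genes), and the largest adjusted p was 0.00325. Over all tested genes, 29.2% were lower by the same test, 28.4% were higher and 57.6% changed in either direction. The 2 E16.5 libraries lay below the 2 E13.5 libraries for each of the 48, against 39.8% of all tested genes. At least a 2-fold fall was seen for 35 of the 48, against 4.24% of all tested genes, and 13 fell by less. The median change was -1.25 on the log2 scale, against 0.01 over all tested genes, and single changes ran between -2.03 and -0.32 with standard errors (SE) of 0.03 to 0.24. Summed over the 48 genes, the level was 2033 and 2030 CPM at E16.5 and 4276 and 4354 CPM at E13.5. In bulk tissue, fewer dividing cells and less RNA per dividing cell cannot be told apart. In the authors' deposited table, all 48 were also lower with an adjusted p under 0.05, against 14.5% of the genes there with an adjusted p.

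**Figure D1:**
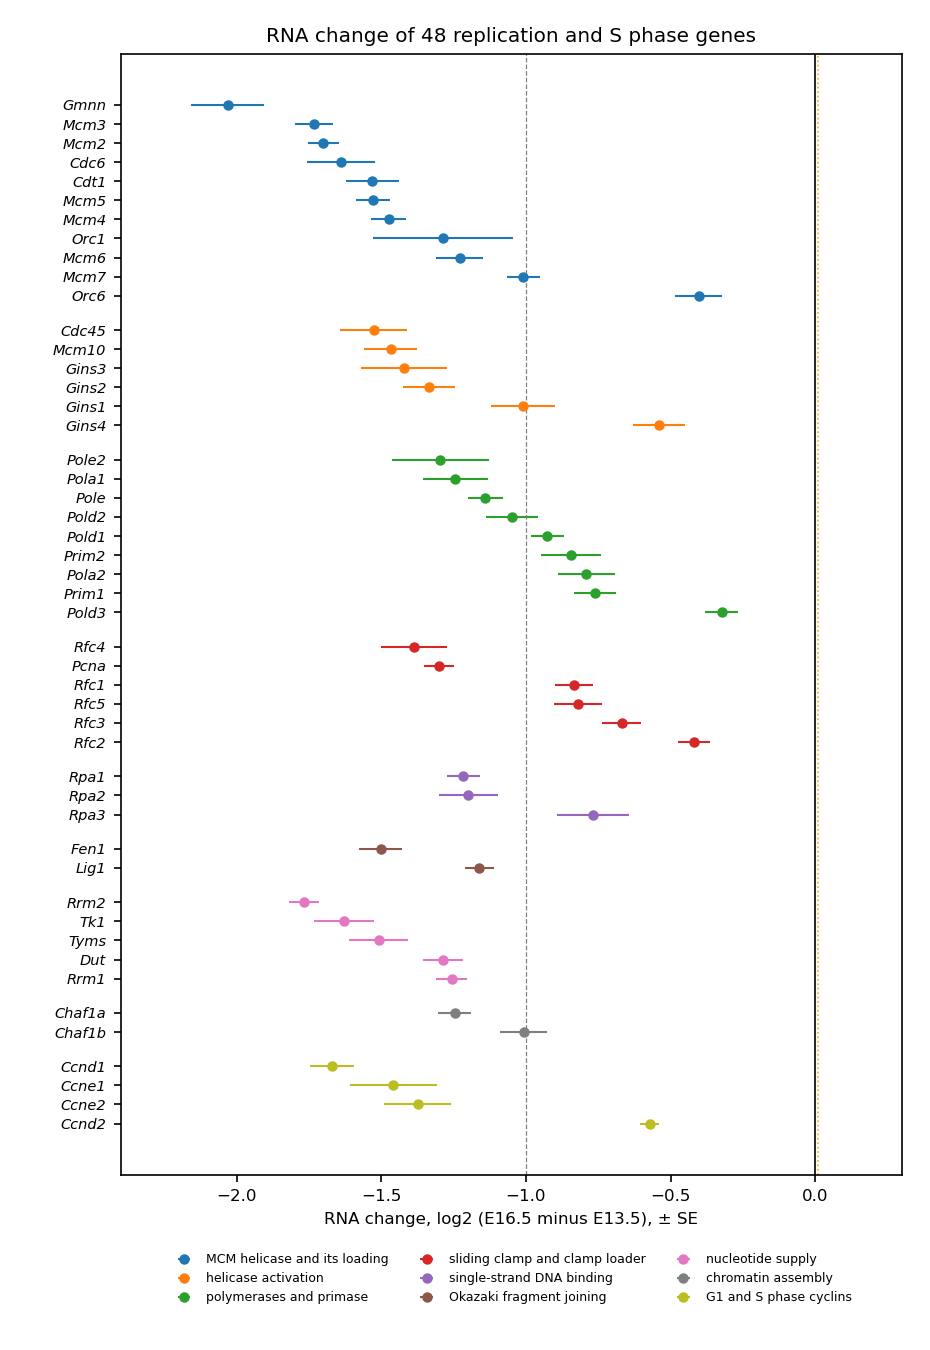
RNA change of the 48 genes between stages, as log2 of E16.5 over E13.5 with its SE (2 libraries per stage), grouped by role. All points lie left of 0; the dashed line marks a 2-fold fall and the dotted line the median of all tested genes, 0.01. The widest spread within a role is among the genes of helicase loading, between -2.03 for Gmnn and -0.40 for Orc6.

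The genes at the extremes of that range were compared at the sequence level. The promoters below are those of the 3 largest falls (Rrm2, Mcm3 and Mcm2) and of the 3 smallest (Pold3, Orc6 and Rfc3) among genes with a promoter entry in RefSeq on GRCm38.p6, together with Mcm5 and Mcm6, which hold the most E2F letters before the start and were picked for that. Each line runs 5′ to 3′ on the gene's strand, from 170 bases before to 30 bases after the annotated start, and capitals mark E2F and CCAAT letters on either strand. E2F letters were TTTCCCGC, TTTCGCGC, TTTGCCGC or TTTGGCGC, the spelling bound by the E2F factors that act at G1/S, or their reverse complements; CCAAT is the box bound by NF-Y.
Rrm2 (chr12:24708084-24708283, plus strand): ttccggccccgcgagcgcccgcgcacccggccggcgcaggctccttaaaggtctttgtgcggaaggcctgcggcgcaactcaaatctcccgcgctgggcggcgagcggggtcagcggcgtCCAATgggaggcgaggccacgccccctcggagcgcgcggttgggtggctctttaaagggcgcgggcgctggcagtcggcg
Mcm3 (chr1:20820283-20820482, minus strand): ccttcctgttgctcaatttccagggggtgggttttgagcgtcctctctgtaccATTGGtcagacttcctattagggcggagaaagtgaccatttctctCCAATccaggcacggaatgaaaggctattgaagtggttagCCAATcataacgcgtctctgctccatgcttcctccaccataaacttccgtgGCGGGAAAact
Mcm2 (chr6:88898751-88898950, minus strand): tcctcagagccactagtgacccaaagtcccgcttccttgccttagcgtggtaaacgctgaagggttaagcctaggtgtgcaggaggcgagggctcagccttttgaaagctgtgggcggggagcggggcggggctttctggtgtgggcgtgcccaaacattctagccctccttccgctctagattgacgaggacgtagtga
Pold3 (chr7:100121473-100121672, minus strand): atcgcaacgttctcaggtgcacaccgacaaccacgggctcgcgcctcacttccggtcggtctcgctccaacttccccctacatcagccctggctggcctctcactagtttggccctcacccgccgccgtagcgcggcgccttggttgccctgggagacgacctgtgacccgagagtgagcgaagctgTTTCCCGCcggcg
Orc6 (chr8:85299462-85299661, plus strand): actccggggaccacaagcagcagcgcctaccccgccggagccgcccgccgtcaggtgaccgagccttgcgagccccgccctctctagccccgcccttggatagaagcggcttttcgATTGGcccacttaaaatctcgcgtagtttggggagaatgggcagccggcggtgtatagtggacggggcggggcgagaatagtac
Rfc3 (chr5:151651179-151651378, minus strand): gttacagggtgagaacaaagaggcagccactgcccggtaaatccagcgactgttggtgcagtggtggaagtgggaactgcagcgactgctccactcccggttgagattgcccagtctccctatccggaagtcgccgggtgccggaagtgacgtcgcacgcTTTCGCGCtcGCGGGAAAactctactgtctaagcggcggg
Mcm5 (chr8:75109339-75109538, plus strand): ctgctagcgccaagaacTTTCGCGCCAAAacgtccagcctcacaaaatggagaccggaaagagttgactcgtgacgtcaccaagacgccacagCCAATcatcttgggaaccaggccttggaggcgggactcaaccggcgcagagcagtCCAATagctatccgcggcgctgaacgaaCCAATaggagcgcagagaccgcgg
Mcm6 (chr1:128359676-128359875, minus strand): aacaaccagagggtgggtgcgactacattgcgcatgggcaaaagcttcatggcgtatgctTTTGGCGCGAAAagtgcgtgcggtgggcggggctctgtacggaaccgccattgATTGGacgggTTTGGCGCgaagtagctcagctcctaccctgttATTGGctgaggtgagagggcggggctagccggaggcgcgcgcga
E2F letters stood in Mcm3, Pold3, Rfc3, Mcm5 and Mcm6 and in none of the Rrm2, Mcm2 and Orc6 windows, so that both large and small falls occurred with and without them. A second E2F match of Mcm3 and the single CCAAT of Mcm2 and of Rfc3 lie outside the printed stretch. In Mcm5 and in Mcm6, 2 E2F matches on opposite strands overlap and print as 1 run of capitals.

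Across the table, 37 of the 48 genes had a promoter entry, with 42 annotated starts, and windows of 300 bases (250 before to 50 after the start) were searched. E2F letters were found at 14 of the 42 starts, each of a different gene, or 33.3%, against 2.26% of all 32851 starts in the table and 3.74% of 14179 starts of protein-coding genes tested in RNA. CCAAT letters were found at 23 of the 42 starts, or 54.8%, against 37.4% of all starts. Among 16 mitosis genes listed for comparison, 14 had an entry, with E2F letters at 0 and CCAAT letters at 12 of 14 starts. The median RNA change was -1.27 for the 14 genes with E2F letters and -1.26 for the 23 without, so the size of the fall did not separate by these letters. The 14 were Mcm3, Mcm5, Mcm6, Mcm7, Orc1, Cdc6, Cdt1, Gins3, Pola1, Pold1, Pold3, Pole2, Rfc3 and Lig1. Of these, 7 belong to the MCM helicase or its loading, a role of 11 genes. In that role, Mcm2 and Orc6 held no E2F letters, and Mcm4 and Gmnn had no promoter entry. Whether the letters were more frequent in this role was not tested. A match is a stretch of letters and not evidence that a factor was bound in this tissue.

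**Figure D2:**
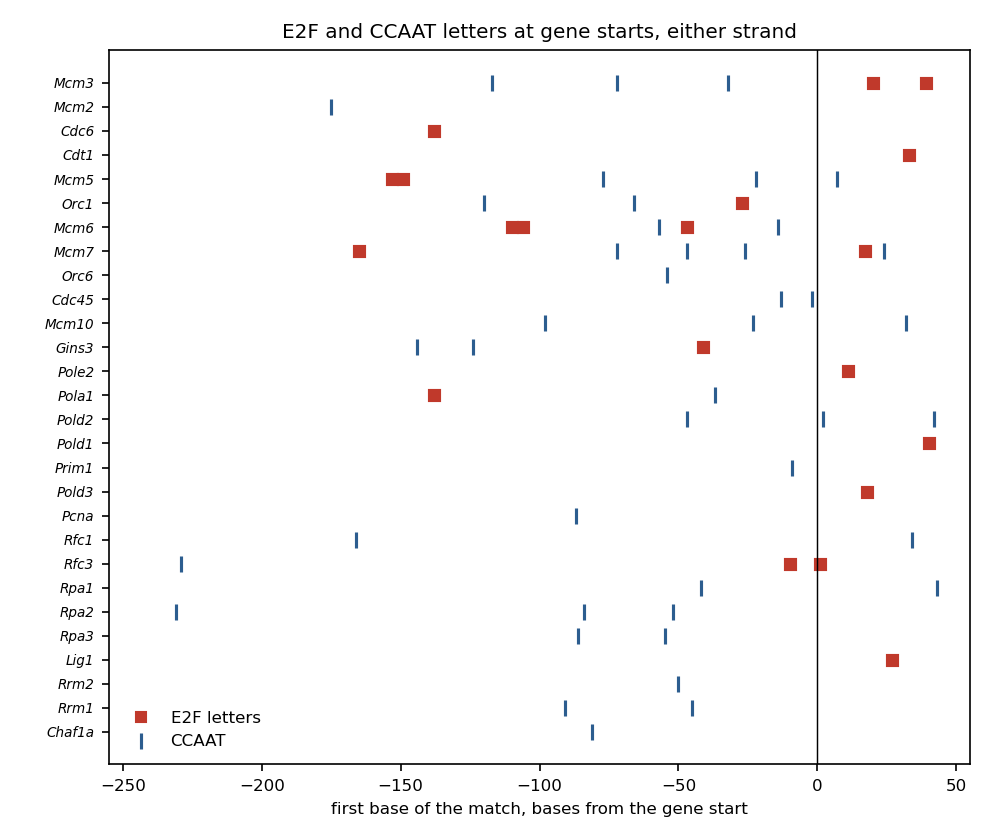
Position of E2F letters (squares) and CCAAT letters (bars) relative to the gene start, in bases, for the genes that hold at least 1 of them, ordered by role. E2F letters lie on both sides of the start, and Mcm5 and Mcm6 hold neighbouring or overlapping matches upstream.

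Helicase loading held the largest single fall. Gmnn, which encodes geminin, the inhibitor of Cdt1, was at 7.26 and 6.05 CPM at E16.5 and at 27.6 and 26.9 CPM at E13.5. Its change was -2.03 ± 0.13 (SE) on the log2 scale, and its gene lies at chr13:24751845-24761937 (GRCm38). Cdt1, the loader that geminin holds in check, was at 15.5 and 15.3 CPM at E16.5 and at 42.3 and 46.7 CPM at E13.5. Both partners therefore fell, and the Cdt1 to Gmnn ratio of CPM within a library was 2.13 and 2.53 at E16.5 and 1.53 and 1.74 at E13.5. The size of such a ratio also depends on transcript length, so it is set only against the same ratio at the other stage. The Cdt1 and Gmnn pair was chosen after the values were seen, and its ratio was not tested. The 6 subunits of the MCM ring fell together, with sums of 402 and 388 CPM at E16.5 and 1023 and 1024 CPM at E13.5. Mcm3 was at 46.4 and 41.0 CPM at E16.5 against 143 and 147 CPM at E13.5 (log2 change -1.73 ± 0.07), and Mcm2 was at 58.3 and 60.2 CPM at E16.5 against 188 and 197 CPM at E13.5 (-1.70 ± 0.05). Mcm5 changed by -1.53, Mcm4 by -1.47, Mcm6 by -1.23 and Mcm7 by -1.01. The ratio of Mcm7 to Mcm2, both subunits of this ring, was 2.18 and 2.24 at E16.5 and 1.44 and 1.30 at E13.5. The pair was picked after the values were seen, and the difference between subunits was not tested.

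Cdc6, the ATPase that recruits the helicase with the origin recognition complex, was at 10.7 and 9.59 CPM at E16.5 and at 29.6 and 33.7 CPM at E13.5. Orc1, the subunit whose level rises and falls with the cycle in human cells, was at 3.13 and 2.45 CPM at E16.5 and at 6.01 and 7.61 CPM at E13.5, the least precise value of the set (log2 change -1.29 ± 0.24). Orc6 was at 27.0 and 29.0 CPM at E16.5 and at 37.8 and 36.3 CPM at E13.5, so its stages were separate although its change was small (-0.40 ± 0.08, edgeR adjusted p = 0.00325). Within the 6-subunit complex, Orc2 was also lower, at -0.61, whereas Orc3 (-0.08), Orc4 (-0.01) and Orc5 (0.07) did not pass the test and changed sign under some settings. Orc3 was at 48.3 and 56.6 CPM at E16.5 and at 52.2 and 58.4 CPM at E13.5, and Orc4 was at 57.0 and 56.8 CPM at E16.5 and at 58.6 and 56.4 CPM at E13.5, so both overlapped between stages. The origin recognition complex therefore held genes that fell and genes for which no change was called, a contrast that was not itself tested.

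**Figure D3:**
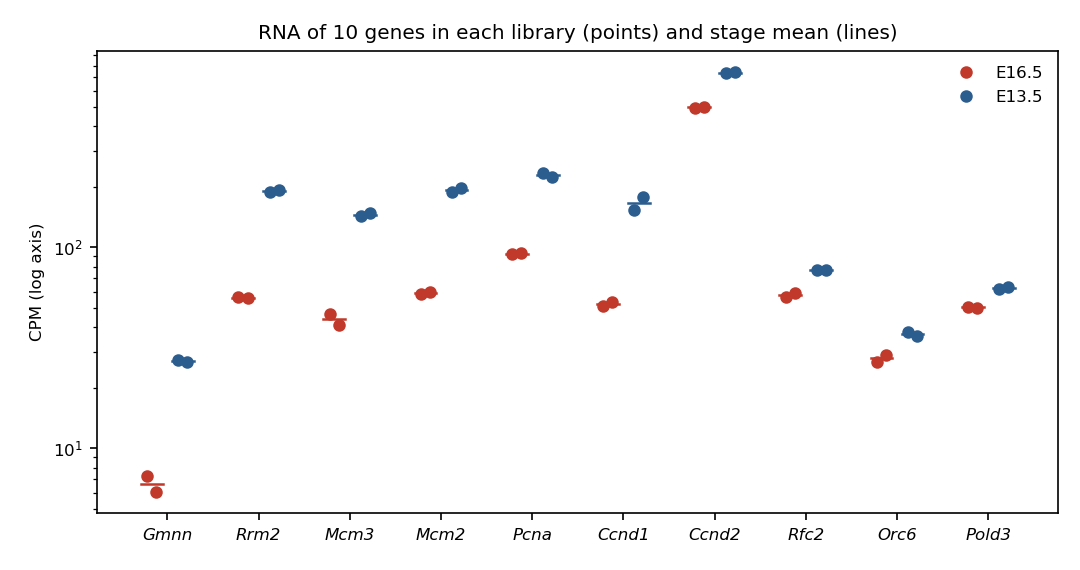
CPM in each library (points) and mean of each stage (lines) on a log axis for 10 genes, E16.5 left of E13.5. The stages are apart for every gene; Gmnn has the widest gap (7.26 and 6.05 against 27.6 and 26.9 CPM) and Pold3 the narrowest (50.6 and 49.7 against 61.8 and 63.7 CPM).

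The helicase is activated by Cdc45 and the 4 GINS subunits, with Mcm10 as a firing factor, and all 6 were lower. Cdc45 was at 9.89 and 11.7 CPM at E16.5 and at 31.8 and 30.5 CPM at E13.5 (log2 change -1.53 ± 0.11), and Mcm10 was at 12.6 and 12.7 CPM at E16.5 and at 35.1 and 35.0 CPM at E13.5 (-1.47 ± 0.09). The GINS subunits, which form 1 complex, spread widely, with -1.42 for Gins3, -1.33 for Gins2, -1.01 for Gins1 and -0.54 for Gins4. Gins4 was at 18.7 CPM in both E16.5 libraries and at 26.9 and 27.6 CPM at E13.5, and the ratio of Gins4 to Gins3 was 3.90 and 3.78 at E16.5 and 2.07 and 2.08 at E13.5. These ratios were chosen after the values were seen and were not tested.

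The polymerases and primase had a median change of -0.93. Pole, the catalytic subunit of the leading-strand polymerase epsilon, changed by -1.14, and its partner Pole2 was at 4.19 and 4.52 CPM at E16.5 and at 11.2 and 10.2 CPM at E13.5 (-1.30 ± 0.17). Of polymerase delta, which makes most of the lagging strand, the catalytic subunit Pold1 changed by -0.93 and Pold2 by -1.05. Pold3 had the smallest fall of all 48, with 50.6 and 49.7 CPM at E16.5 and 61.8 and 63.7 CPM at E13.5 (-0.32 ± 0.06, edgeR adjusted p = 0.00172). Of the primase complex, which starts new strands, Pola1 changed by -1.24, Prim2 by -0.84, Pola2 by -0.79 and Prim1 by -0.76. The subunits named here thus shared a direction, and whether they differed in size was not tested. Pold4, a further subunit of polymerase delta outside the 48, was higher (0.69), a call lost under several settings and described below.

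Pcna, the sliding clamp that tethers polymerases, was at 92.6 and 93.1 CPM at E16.5 and at 233 and 224 CPM at E13.5 (log2 change -1.30 ± 0.05). Of the 5 subunits of its loader, replication factor C, Rfc4 fell the most, at 10.7 and 10.8 CPM at E16.5 and at 26.2 and 30.1 CPM at E13.5 (-1.39 ± 0.11), and Rfc2 the least, at 56.2 and 59.0 CPM at E16.5 and at 77.2 and 76.8 CPM at E13.5 (-0.42 ± 0.06). Rfc1, Rfc5 and Rfc3 lay between them at -0.83, -0.82 and -0.67. The processed pseudogene Pcna-ps2 had 7.37 and 4.90 CPM at E16.5 and 10.1 and 13.01 CPM at E13.5, so a small share of Pcna reads could have been assigned to it. The single-strand DNA binding subunits Rpa1, Rpa2 and Rpa3 changed by -1.22, -1.20 and -0.77. Fen1, the nuclease that trims Okazaki fragments, changed by -1.50 and Lig1, the ligase that joins them, by -1.16.

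Nucleotide supply had a median change of -1.51, beside -1.53 for helicase loading. Rrm2, the small subunit of ribonucleotide reductase and the one made anew in S phase, was at 56.4 and 55.6 CPM at E16.5 and at 188 and 194 CPM at E13.5. It changed by -1.77 ± 0.05, the second largest fall of the set, and lies at chr12:24708254-24714146. The large subunit Rrm1 was at 101 and 96.3 CPM at E16.5 and at 236 CPM in both E13.5 libraries (-1.26 ± 0.05). The Rrm1 to Rrm2 ratio was 1.79 and 1.73 at E16.5 and 1.25 and 1.22 at E13.5, with no overlap between stages. The pair was chosen after the values were seen, as the smallest and largest fall of this role, and the ratio was not tested. Thymidine kinase Tk1 changed by -1.63, thymidylate synthase Tyms by -1.51 and the dUTPase Dut by -1.29. Chaf1a and Chaf1b, subunits of the factor that puts histones on new DNA, changed by -1.25 and -1.01.

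The cyclins split by gene. Ccnd1, the D-type cyclin that opens G1, was at 50.8 and 53.1 CPM at E16.5 and at 154 and 177 CPM at E13.5 (log2 change -1.67 ± 0.08). Ccnd2, a second D-type cyclin that is prominent in cortical progenitors, was at 493 and 501 CPM at E16.5 and at 736 and 742 CPM at E13.5, a smaller and the most precise change of the set (-0.57 ± 0.03). The ratio of Ccnd2 to Ccnd1 within a library was 9.70 and 9.42 at E16.5 and 4.79 and 4.18 at E13.5, so the stages did not overlap; the pair was chosen after the values were seen. The E-type cyclins, which act at S phase entry, changed by -1.46 (Ccne1) and -1.37 (Ccne2).

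Neighbouring steps of the pathway were described from lists of 94 further genes, of which 92 were tested, 78 were lower, 3 were higher and 11 were not called, with a median change of -1.004. Among 13 other licensing and firing genes, 8 were lower, led by Ticrr (-1.68), Dbf4 (-1.17), which activates the Cdc7 kinase, and Topbp1 (-1.14). Cdc7 itself was at 50.6 and 50.03 CPM at E16.5 and at 53.6 and 51.0 CPM at E13.5 and was not called (-0.06). Of 15 other fork and lagging-strand genes, 13 were lower, led by Clspn (-1.57), Chtf18 (-1.54) and the PCNA-binding Pclaf (-1.54). Pold4, a small accessory subunit of polymerase delta, was the exception: it was at 4.36 and 4.47 CPM at E16.5 and at 2.64 and 2.81 CPM at E13.5 (0.69 ± 0.24, edgeR adjusted p = 0.0347), a call that was lost with DESeq2, with no filter on low counts, and whenever 1 of the 4 libraries was left out. Of 8 other nucleotide supply genes, 5 were lower, among them Shmt1 (-1.29) and Dck (-1.14). All 7 replication-coupled chromatin genes were lower, led by Uhrf1 (-1.69), which guides DNA methylation to new strands, Esco2 (-1.56) and the histone chaperone Asf1b (-1.53).

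Upstream regulators moved too. Of 13 E2F and pocket protein genes, 12 were lower, led by E2f8 (-1.55), E2f2 (-1.53) and the activator E2f1 (-1.48), and Rbl2 (0.06) was not called. E2f1 was at 15.9 and 14.9 CPM at E16.5 and at 42.3 and 43.7 CPM at E13.5. All 7 genes of the list of CDKs, other cyclins and Cdc25 were lower, led by Ccna2 (-1.68), Cdk1 (-1.49) and Cdk2 (-1.22). Of 7 CDK inhibitors, 5 passed the filter and 4 were lower, namely Cdkn1c (-1.14), Cdkn2c (-0.84), Cdkn2d (-0.54) and Cdkn1b (-0.29). The exception was Cdkn1a, which encodes p21, at 11.2 and 10.3 CPM at E16.5 and at 7.93 and 6.84 CPM at E13.5 (0.54 ± 0.16, edgeR adjusted p = 0.0171); the call was lost with DESeq2 and without E16.5 replicate 1 or E13.5 replicate 2. Of 8 S phase checkpoint genes, 6 were lower, led by Chek1 (-1.50), Wee1 (-1.33) and Hus1 (-0.75), and Atrip was higher (0.32). All 16 mitosis genes were lower with a median of -1.63, led by Aurka (-1.78), Ccnb1 (-1.75) and Plk1 (-1.72), so the fall of replication genes came with a fall of genes used later in the cycle.

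At the chromatin level, every one of the 48 genes kept H3K9ac and H3K9cr. Within 1 kb of the gene start, a peak was called in all 4 libraries of each of these marks at 48 of 48 genes, against 89.2% (H3K9ac) and 89.6% (H3K9cr) of protein-coding genes tested in RNA, and none was gained or lost. Among RNA-tested genes, an H3K9ac start peak was gained at 1.14% and lost at 0.138%, and an H3K9cr start peak was gained at 0.877% and lost at 0.159%. Over the gene span widened by 2 kb on both sides, the 48 genes were again marked in all libraries, against 93.7% and 93.9%, with none gained (0.978% and 0.732% of RNA-tested genes for the 2 marks) and none lost (0.0652% for each). The fold enrichment at a peak is the authors' own value from the caller and was used to describe peaks within a list. In the H3K9ac lists, 17 and 14 of the 48 genes at E16.5 and 25 and 31 at E13.5 had a top start peak above the median of all RNA-tested genes with a start peak in the same library. For H3K9cr these numbers were 19 and 15 at E16.5 and 26 and 24 at E13.5. The lists differ in length, so these ranks describe each library, and whether the marks changed between stages cannot be read from them.

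H3K18la was less complete. A start peak was called at 34 and 42 of the 48 genes in the E16.5 libraries and at 46 and 48 in the E13.5 libraries, against 74.8% and 81.1% of RNA-tested genes at E16.5 and 80.5% and 82.6% at E13.5. All 4 libraries marked 33 of the 48, against 69.8% of RNA-tested genes, and no gene gained a start peak at E16.5, against 0.898%. The start peak was lost, meaning present in both E13.5 and in neither E16.5 library, at Ccne1, Cdc6, Mcm3 and Pold1, or 4 of 48, against 2.54% of RNA-tested genes. With E16.5 replicate 2 left out the number was 13, against 7.52%, and with E16.5 replicate 1 left out it was 4, against 3.46%. Such a number cannot fall when a library is left out. E16.5 replicate 1 had the fewest peaks and the shortest (median 486 bp, against 634 to 650 bp in the other 3 libraries), and the part of this in the count was not tested. Over the widened gene span, 37 were marked in all 4 libraries, against 80.7%. None was gained, against 0.652%, and Ccne1 and Pold1 were lost, against 2.06%. The lost number was 10 without E16.5 replicate 2, against 6.12%, and 2 without E16.5 replicate 1, against 2.80%.

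Mcm3 was among the genes that lost the start peak, although its widened gene span held an H3K18la peak in every library. Its H3K18la start region at chr1:20819772-20820264 was called only at E13.5, with fold enrichments of 4.58 and 7.72. Rrm2, with a like fall in RNA, had an H3K18la start peak in E16.5 replicate 2 and in both E13.5 libraries. Over the widened span, H3K18la covered 340 and 1587 bp of Rrm2 at E16.5, against 2303 and 3118 bp at E13.5. Mcm2 had a start peak in all 4 libraries, yet its covered length was also shorter, as given below. A large fall in RNA thus occurred with the start peak lost from both E16.5 libraries, from E16.5 replicate 1 alone or from neither. At Mcm3, Rrm2 and Mcm2 alike, H3K18la covered less in both E16.5 than in both E13.5 libraries.

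**Figure D4:**
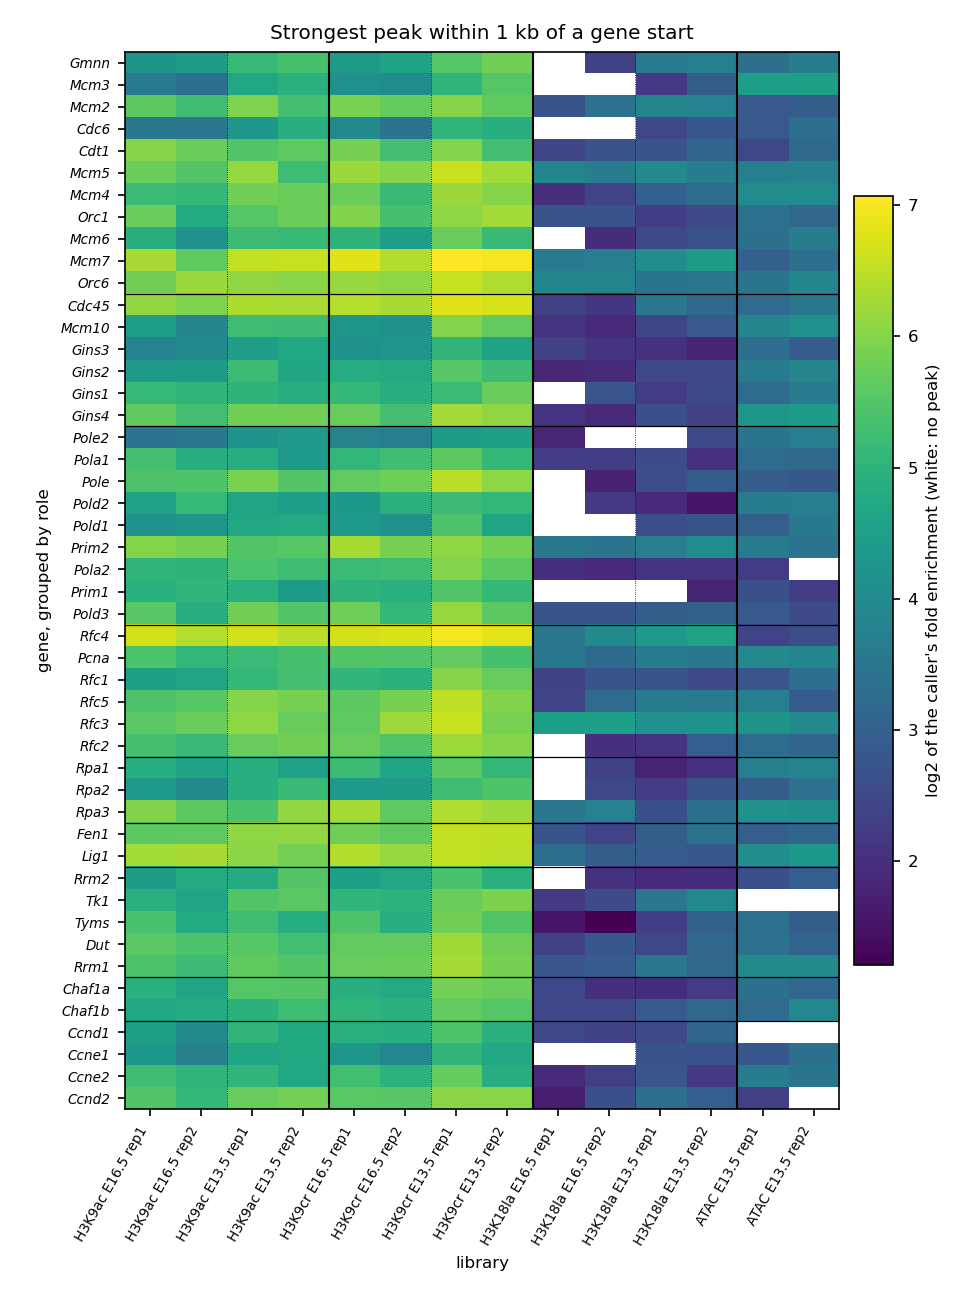
Strongest peak within 1 kb of each gene start in every library, as log2 of the fold enrichment given by the peak caller (white, no peak), with E16.5 left of E13.5 for each mark. H3K9ac and H3K9cr are present in all 8 of their libraries at all 48 genes, whereas white cells cluster in H3K18la E16.5 replicate 1.

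Open chromatin was mapped at E13.5 and so carries no stage comparison. An ATAC peak was called in both libraries within 1 kb of the start of 44 of the 48 genes, against 65.2% of RNA-tested genes, and over the widened span of 45, against 75.7%. Tk1 and Ccnd1 had no ATAC peak at the start in either library, and Ccnd2 and Pola2 had it in replicate 1. A start with all 3 marks in all libraries and ATAC in both was found for 29 of 48 genes, or 60.4%, against 54.3% of RNA-tested genes.

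The length covered by peaks was compared next, an analysis added after the data were seen. Over the widened gene span, H3K9ac covered less in both E16.5 libraries than in both E13.5 libraries at 35 of the 48 genes, against 27.5% of RNA-tested genes with peaks in all libraries. It covered more at 7, against 35.3%. The median log2 ratio of covered length was -0.20 for the 48 genes and 0.02 for the RNA-tested genes, although the E16.5 H3K9ac lists were longer in total (54.2 and 54.2 Mb, against 45.9 and 45.4 Mb at E13.5). Genes lower in RNA by at least 2-fold, of which most are not replication genes, were shorter in 57.9% and longer in 14.7%. All genes lower in RNA were shorter in 40.9% and longer in 20.1%, those not called in 27.2% and 31.5%, and those higher in RNA in 12.4% and 57.5%, so shortening was not shown to be particular to replication genes. Another protein-coding gene lay in the window of 24 of the 48, and among the other 24 the H3K9ac length was shorter at 20. Leaving out a library can only keep or raise such counts, so each is set beside the share of RNA-tested genes. With E16.5 replicate 1 left out, 37 were shorter, against 36.1%, and 11 longer, against 44.5%. When each library was cut to an equal number of peaks, 36 were shorter, against 33.5%. Within 1 kb of the start the share was lower, with 26 of 48 shorter against 32.4%.

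Pcna is an example, with 4119 and 4017 bp of H3K9ac at E16.5 and 4614 and 4770 bp at E13.5. Gmnn had 1571 and 1313 bp at E16.5 and 1711 and 1913 bp at E13.5, and Ccnd1 had 4205 and 4184 bp at E16.5 and 5081 and 5214 bp at E13.5. In each the stages were separate. The 7 genes with longer H3K9ac were Ccnd2, Pola1, Pold1, Pole2, Prim2, Rfc5 and Rpa3, all of which fell in RNA. Ccnd2 had 10617 and 9663 bp at E16.5 and 9016 and 8786 bp at E13.5, and Pole2 had 1735 and 1627 bp at E16.5 and 965 and 1198 bp at E13.5. The Pole2 window also overlaps Dnaaf2 and Klhdc1, the Pcna window Tmem230 and Cds2, and the Ccnd1 window LTO1, while those of Gmnn and Ccnd2 overlap no other protein-coding gene. In a shared window, which gene the covered length belongs to cannot be told apart.

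H3K18la was shorter at 25 of the 37 genes with peaks in all 4 libraries, against 41.3% of RNA-tested genes, and longer at 1, Pole2, against 6.42%. Genes lower in RNA by at least 2-fold were shorter in 65.9% and longer in 1.22%, so this shortening, too, was not shown to be particular to replication genes. The median log2 ratio was -0.48 for these 37 genes and -0.25 for RNA-tested genes. Without E16.5 replicate 1, the library with short peaks, 32 of 45 genes were shorter, against 43.5%, and 3 were longer, against 31.9%. The medians were then -0.28 and -0.06, and without E16.5 replicate 2 they were -0.80 and -0.49. Mcm2 had 1112 and 1135 bp at E16.5 and 2622 and 2245 bp at E13.5, and Ccnd1 had 2331 and 2795 bp at E16.5 and 3962 and 5268 bp at E13.5. H3K9cr gave no single direction. It was shorter at 19 of 48 genes, against 12.7%, and longer at 8, against 44.0%. Genes lower in RNA by at least 2-fold were shorter in 34.7% and longer in 19.2%, near the shares of the 48, 39.6% and 16.7%. Among the 24 genes with no neighbour 6 were shorter and 8 longer. The H3K9cr counts rose when a library was left out, and so did the shares of RNA-tested genes. Without E13.5 replicate 2, 31 were shorter (34.4% of RNA-tested genes). Without E13.5 replicate 1, 17 were longer (71.5%), and without E16.5 replicate 1, 14 were longer (56.8%). Whichever library was left out, the 48 held a larger share of shorter genes than RNA-tested genes did. Their share of longer genes was smaller each time. Across the genes, Spearman's rho between RNA change and log2 ratio of covered length was 0.29 for H3K9ac (48 genes), 0.19 for H3K9cr (48 genes) and 0.59 for H3K18la (37 genes), given as a description over genes that share the same libraries.

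**Figure D5:**
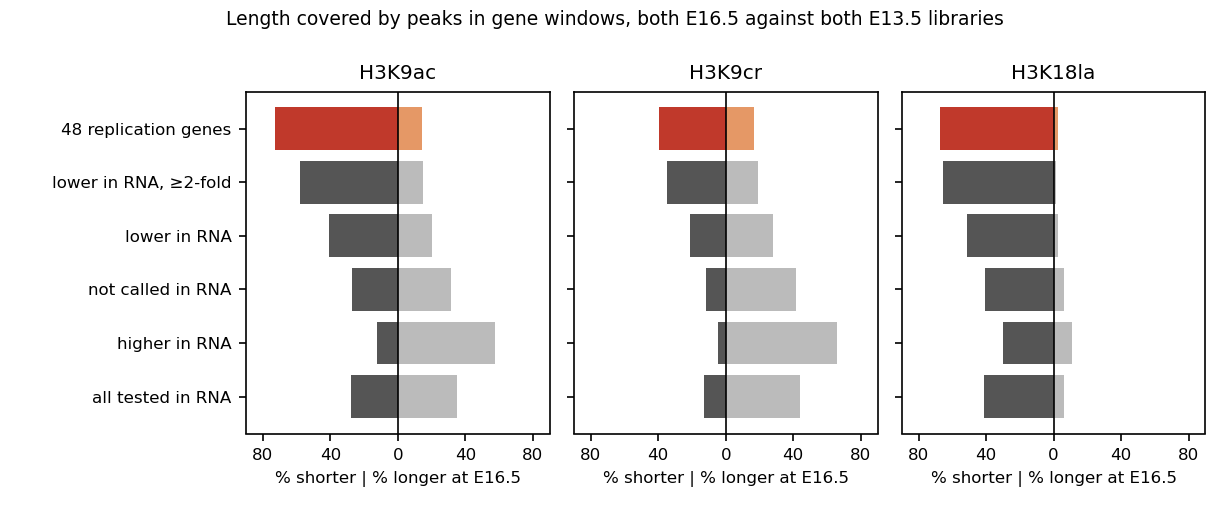
Share of genes whose peak-covered length is shorter (left of 0) or longer (right of 0) in both E16.5 than in both E13.5 libraries, in percent of genes with a peak in all 4 libraries, for the replication genes and for groups of RNA-tested genes. For H3K9ac, 72.9% of the replication genes are shorter, against 57.9% of genes lower in RNA by at least 2-fold and 12.4% of genes higher in RNA.

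Single regions were then compared after overlapping peaks from its 4 libraries had been joined for each mark. Of 92 H3K18la regions in the windows of the 48 genes, 11 were called in both E13.5 and in neither E16.5 library, or 11.96%, against 7.07% of regions at RNA-tested genes, and 0 the other way, against 4.19%. The 11 lay at Ccne1, Ccne2, Cdc6, Fen1, Mcm2, Mcm3, Pola1, Pold1 and Prim2, with a pair each at Fen1 and Mcm2. Those at Mcm2 (chr6:88886098-88886474 and chr6:88886798-88887279) lie within the gene span, away from its start. Of 84 H3K9ac regions, 6 were E16.5 regions by the same rule and 1 was an E13.5 region; of 73 H3K9cr regions, 6 were E16.5 regions and none was an E13.5 region. Around RNA-tested genes, E16.5 regions made up 12.5% (H3K9ac) and 11.5% (H3K9cr) of all joined regions, and E13.5 regions 1% and 0.485%. The region with the highest fold enrichment among these, 13.6 and 14.1, was H3K9cr at E16.5 within the Ccnd2 gene at chr6:127130087-127131250.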

How the data were processed

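RNA-seq, ChIP-seq and ATAC-seq of telencephalon were used as deposited. The RNA table deposited by the authors held expected counts (estimated reads per gene, unscaled) from Salmon 1.1.0 on GRCm38, per the submitters' processing notes; in a library, 24.4% to 25.3% of them had a fraction. A second deposited table held the authors' log2 fold changes and each p-value from DESeq2 1.26.0, again per those notes. The submitters' processing notes name Bowtie2 2.4.1 and MACS2 2.2.7.1 for the peaks, which came as 1 list per library. Columns of a list, per the file headers, were the pileup signal of a peak, its p-value and q-value as −log10, and the fold ratio over background computed by the caller. How the signal was scaled, which control the caller used, and the strand handling in RNA counting, were not stated.

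After rounding, stages were compared (E16.5 over E13.5) by the quasi-likelihood F test of edgeR 4.0.16 in R 4.3.3 with TMM scaling, the filterByExpr filter and 2 residual degrees of freedom, using Benjamini-Hochberg adjustment over all 16237 tested genes and a threshold of 0.05. CPM are rounded counts divided by TMM-scaled library sizes. Replicates of a stage differed by more than counting noise (chi-square per gene 7.88 at E16.5 and 5.90 at E13.5). All 48 genes passed the filter, with at least 45 counts in every library. Of these, 14 overlap the span of another protein-coding gene, introns included, and whether their exons overlap was not examined. Without a strand setting, reads from shared transcribed sequence cannot be told apart.

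Gene spans came from RefSeq on GRCm38.p6; starts and strand came from its promoter table for 37 of the 48 genes, and for the other 11 either end was taken. A gene was marked where a peak overlapped its window by at least 1 bp. With 2 libraries per stage no test was run on peaks. The read depth behind the peak lists is unknown. Covered length is the number of bases of a window inside peaks (Python 3.11.15). Fits were tested on simulated data.

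The members, roles and lists were chosen with earlier results of these data known. Members are described by role; in each other list, up to 3 rising and 3 falling genes with an adjusted p under 0.05 and a mean CPM of at least 1 are named by size, and others were named after their values were seen. A gene that this rule names is not reported here. Marker lists not described elsewhere gave, for the telencephalon, 8 of 8 lower, for oligodendrocyte precursors 4 of 5 higher and 1 lower, for erythroid cells 3 of 7 higher and 2 lower, and for meninges and mesenchyme 1 of 4 tested genes higher. Pax6 stands in 2 of the lists. Alternatives were upper-quartile and DESeq2 scaling, DESeq2 1.42.0, no filter, a replicate block, other peak thresholds and windows, and leaving out each library in turn.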

Additional observations from a re-analysis of the deposited data

How the results depend on the processing

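All 48 genes remained lower and called under upper-quartile scaling, DESeq2 size factors, the DESeq2 test, no filter on low counts and with each RNA library left out. Upper-quartile scaling moved the median of all tested genes to 0.10, and with it the median of the 48 to -1.16; leaving out libraries gave -1.31 to -1.25. The correlation between the replicate 1 deviations of both stages was 0.12. This single value cannot show whether the replicate numbers pair the samples. With a replicate block 48 were again lower, with a median of -1.25 and no member call changed. Genes that were never called changed sign: under upper-quartile scaling Orc3 (0.014), Orc4 (0.077) and Cdc7 (0.036), and with 1 library left out Orc3 (-0.20 to 0.017), Orc4 (-0.055 to 0.0053), Orc5 (-0.0097 to 0.12) and Rbl2 (-0.0014 to 0.11). The number of genes that lost H3K18la was 5 with the span not widened (2.62% of RNA-tested genes), and 2 to 10 (span, 2.60 to 6.12%) and 4 to 13 (start, 3.34 to 7.52%) with a library left out. For covered length, within 1 kb of the start 3 genes were longer for H3K9ac (18.1% of RNA-tested genes), 10 shorter for H3K9cr (15.9%) and 0 longer for H3K18la (8.02%). With a library left out, the longer counts were 7 to 11 for H3K9ac (43.5 to 45.6%), 9 to 17 for H3K9cr (46.2 to 71.5%) and 1 to 3 for H3K18la (7.58 to 31.9%), and 20 to 31 were shorter for H3K9cr (14.4 to 34.4%). Counts of lost, shorter or longer genes cannot fall when a library is left out, because fewer libraries must agree. The causes were not tested. With 2 libraries per group, small differences between genes or libraries could not be resolved.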
